A study of Mus musculus with 4 samples.

Results

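The 6 genes described here, *Slco1a1*, *Slco1a6*, *Slco2a1*, *Slco2b1*, *Slco3a1* and *Slco4c1*, encode members of the organic anion transporting polypeptide family of membrane carriers. They were taken by name from a table of 19632 gene rows, with earlier results of these data known, and 6 of 6 had a row. The table holds 13 rows whose symbol starts with Slco, and the other 7 are given by their range. Nuclei from the kidney cortex of 4 male mice of mixed strain were sequenced singly, 1 mouse per group. Control mice carried the TRE-hKLF6 transgene alone, and hKLF6 OE mice carried CAG-rtTA together with TRE-hKLF6, which drives human *KLF6*, an injury-induced zinc-finger transcription factor, in all tissues while doxycycline is fed. All 4 mice carried TRE-hKLF6 and, per the study's methods, were fed doxycycline, so the controls share the diet and that transgene. One mouse of each genotype was labelled as treated with AAI, which is aristolochic acid I, a plant toxin that forms DNA adducts in the proximal tubule, and was killed the day after a single injection. The mice without AAI were labelled as having no treatment. Their ages were not given in the sources used here. The human transgene has no row in the table.

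Each deposited value is the mean level of a gene across all nuclei that 1 mouse gave to 1 cluster, as linear counts per 10000 counts of a nucleus. There were 23 clusters and 92 columns. The clusters comprised 5 normal proximal tubule clusters (PT-S1-S2-1 and PT-S1-S2-2 of the early segments, and PT-S3-1, PT-S3-2 and PT-S3-3 of the last segment), 2 injured proximal tubule clusters (InjuredPT-A and InjuredPT-B) and 16 clusters outside the proximal tubule. The columns carry cluster numbers, and the names were assigned by order, so names were checked on markers: *Nphs1* peaked in Podocytes, *Cd74* in Macrophage, *Slc12a1* in LH-AL-1 (ascending limb), *Flt1* in EC-2 (endothelium) and *Cyp7b1* in PT-S3-2. *Itga8*, a mesangial marker, was highest in Macrophage instead of MC, the mesangial cluster, while *Pdgfrb* and *Ren1* were highest in MC. *Gata3*, the other mesangial marker used, was highest in CD_PC, the principal cells of the collecting duct (2.94, against 0.320 in MC). EC-1 carried from 62.1% to 82.3% of the normal proximal tubule level of 5 proximal tubule markers, which goes against an endothelial name alone. Neither the number of nuclei nor the depth behind a column is held, so no counting interval is given. A column that rests on few nuclei leaves many genes at 0. InjuredPT-A had 62.6% (control) and 40.8% (hKLF6 OE) of its genes at 0 without AAI, against 22.5% and 22.2% with it. With 1 mouse per group no difference between conditions could be tested, and each value describes these 4 mice.

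Organic anion transporting polypeptides carry large amphipathic anions across the plasma membrane, independently of sodium, in exchange for other anions. Their cargo includes bile salts, steroid conjugates, thyroid hormones, prostaglandins and many drugs. In the kidney, cells of the proximal tubule take up such compounds from blood or from filtered urine, and carriers of the SLC22 family do the same for smaller anions. *Slco1a1* encodes a carrier of bile salts and steroid conjugates that lies on the luminal side of the mouse proximal tubule. *Slco1a6* encodes a close relative that is enriched in kidney and whose cargo is less well known. *Slco4c1* encodes a carrier of the blood side of the proximal tubule that takes thyroid hormone and digoxin. *Slco2a1* encodes the prostaglandin transporter, *Slco3a1* a widely expressed carrier of prostaglandins and thyroxine, and *Slco2b1* a widely expressed carrier of steroid sulfates.

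The positions are those of the GENCODE annotation of GRCm38, the assembly also called mm10, which the submitters' processing notes name. *Slco1a1* (ENSMUSG00000041698) lies at chr6:141907282-141946962 on the minus strand and spans 39.7 kb, and *Slco1a6* (ENSMUSG00000079262) lies at chr6:142085761-142208521 on the same strand and spans 122.8 kb. Both stand in the same cluster of carrier genes as *Slco1c1*, *Slco1b2*, *Slco1a4* and *Slco1a5*. *Slco4c1* (ENSMUSG00000040693) lies at chr1:96816270-96872171 on the minus strand, *Slco3a1* (ENSMUSG00000025790) at chr7:74275419-74554780 on the minus strand, *Slco2b1* (ENSMUSG00000030737) at chr7:99657804-99711340 on the minus strand and *Slco2a1* (ENSMUSG00000032548) at chr9:102988712-103096002 on the plus strand. *Slco3a1* is the longest of the 6, with a span of 279.4 kb. Reads from introns were counted, so longer genes can gather more counts, and levels are set against each other between genes per 100 kb of span. Of the distinct stretches of 50 bases in their transcripts, *Slco1a1* shared 1.64% and *Slco1a6* 2.22% with other Slco genes, and the other 4 members shared 0%, so few exonic reads of that length could fall to a paralog. Introns were not compared.

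RefSeq promoters on GRCm38.p6 matched 5 of the 6 members, all but *Slco3a1*. The 250 bases before the transcription start are shown for *Slco1a1* and *Slco4c1*, the members whose levels differed most sharply between the 3 PT-S3 clusters, as chr6:141946963-141947212 and chr1:96872172-96872421, both on the minus strand and written 5′ to 3′. For *Slco1a6*, the start used by RefSeq lies within the gene as GENCODE draws it, where another transcript has an untranslated exon, so only the 29 bases at chr6:142186217-142186245 on the minus strand are shown. Capitals mark matches, on either strand, to 2 motifs that were chosen with the sequences in view, which share no letters of overlap here: the HNF4 site CAAAGTTCA or CAAAGTCCA and the TATA box TATAAA.
Slco1a1: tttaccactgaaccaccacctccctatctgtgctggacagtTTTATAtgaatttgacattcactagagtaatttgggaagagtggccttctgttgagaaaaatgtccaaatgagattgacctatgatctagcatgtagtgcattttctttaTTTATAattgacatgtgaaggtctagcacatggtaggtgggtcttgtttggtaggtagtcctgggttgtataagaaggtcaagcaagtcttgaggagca
Slco4c1: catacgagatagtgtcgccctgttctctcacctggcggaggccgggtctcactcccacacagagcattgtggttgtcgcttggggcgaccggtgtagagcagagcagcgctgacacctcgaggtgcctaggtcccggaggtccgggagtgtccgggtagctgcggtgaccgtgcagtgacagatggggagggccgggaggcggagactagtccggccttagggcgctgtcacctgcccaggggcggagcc
Slco1a6: ggccaggaatCAAAGTTCAatctagctta
The *Slco1a6* window held an HNF4 site from base -86 to base -78, counted back from the start at base 0, and 0.715% of 32851 promoter windows of the same length held one. The *Slco4c1* window held neither motif and overlaps the antisense gene *Panct2*. The *Slco1a1* window held the TATA box letters on the opposite strand at bases -209 to -204 and -99 to -94, and 12.4% of all windows held these letters. Of the windows not shown, that of *Slco2a1* held TATAAA on the gene's own strand at bases -29 to -24, and those of *Slco2b1* held neither motif. The *Slco2a1* window lies within the gene as GENCODE draws it. A match is a stretch of letters and does not show that a factor binds there.

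The 6 genes fell into 3 patterns. *Slco1a6*, *Slco1a1* and *Slco4c1* had their highest mean in a PT-S3 cluster, *Slco2a1* and *Slco2b1* peaked outside the proximal tubule, and *Slco3a1* was spread along the nephron with its highest mean in PT-S3-2. A level of at least 0.5, the minimum used below for differences, was reached on the plain scale, which is not corrected for span and gives no order of the genes, by *Slco1a6* in 91 of 92 columns, by *Slco3a1* in 90, by *Slco1a1* in 78, by *Slco2a1* in 26, by *Slco2b1* in 9 and by *Slco4c1* in 3. Per 100 kb of gene span, the highest cluster means were 13.1 for *Slco1a6* in PT-S3-2, 9.71 for *Slco1a1* in PT-S3-1, 3.30 for *Slco2b1* in MC, 2.79 for *Slco3a1* in PT-S3-2, 1.99 for *Slco2a1* in Podocytes and 1.23 for *Slco4c1* in PT-S3-2. In PT-S3-1, where the plain levels of *Slco1a6* and *Slco1a1* were far apart, those per 100 kb were 11.02 and 9.71.

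**Figure D1:**
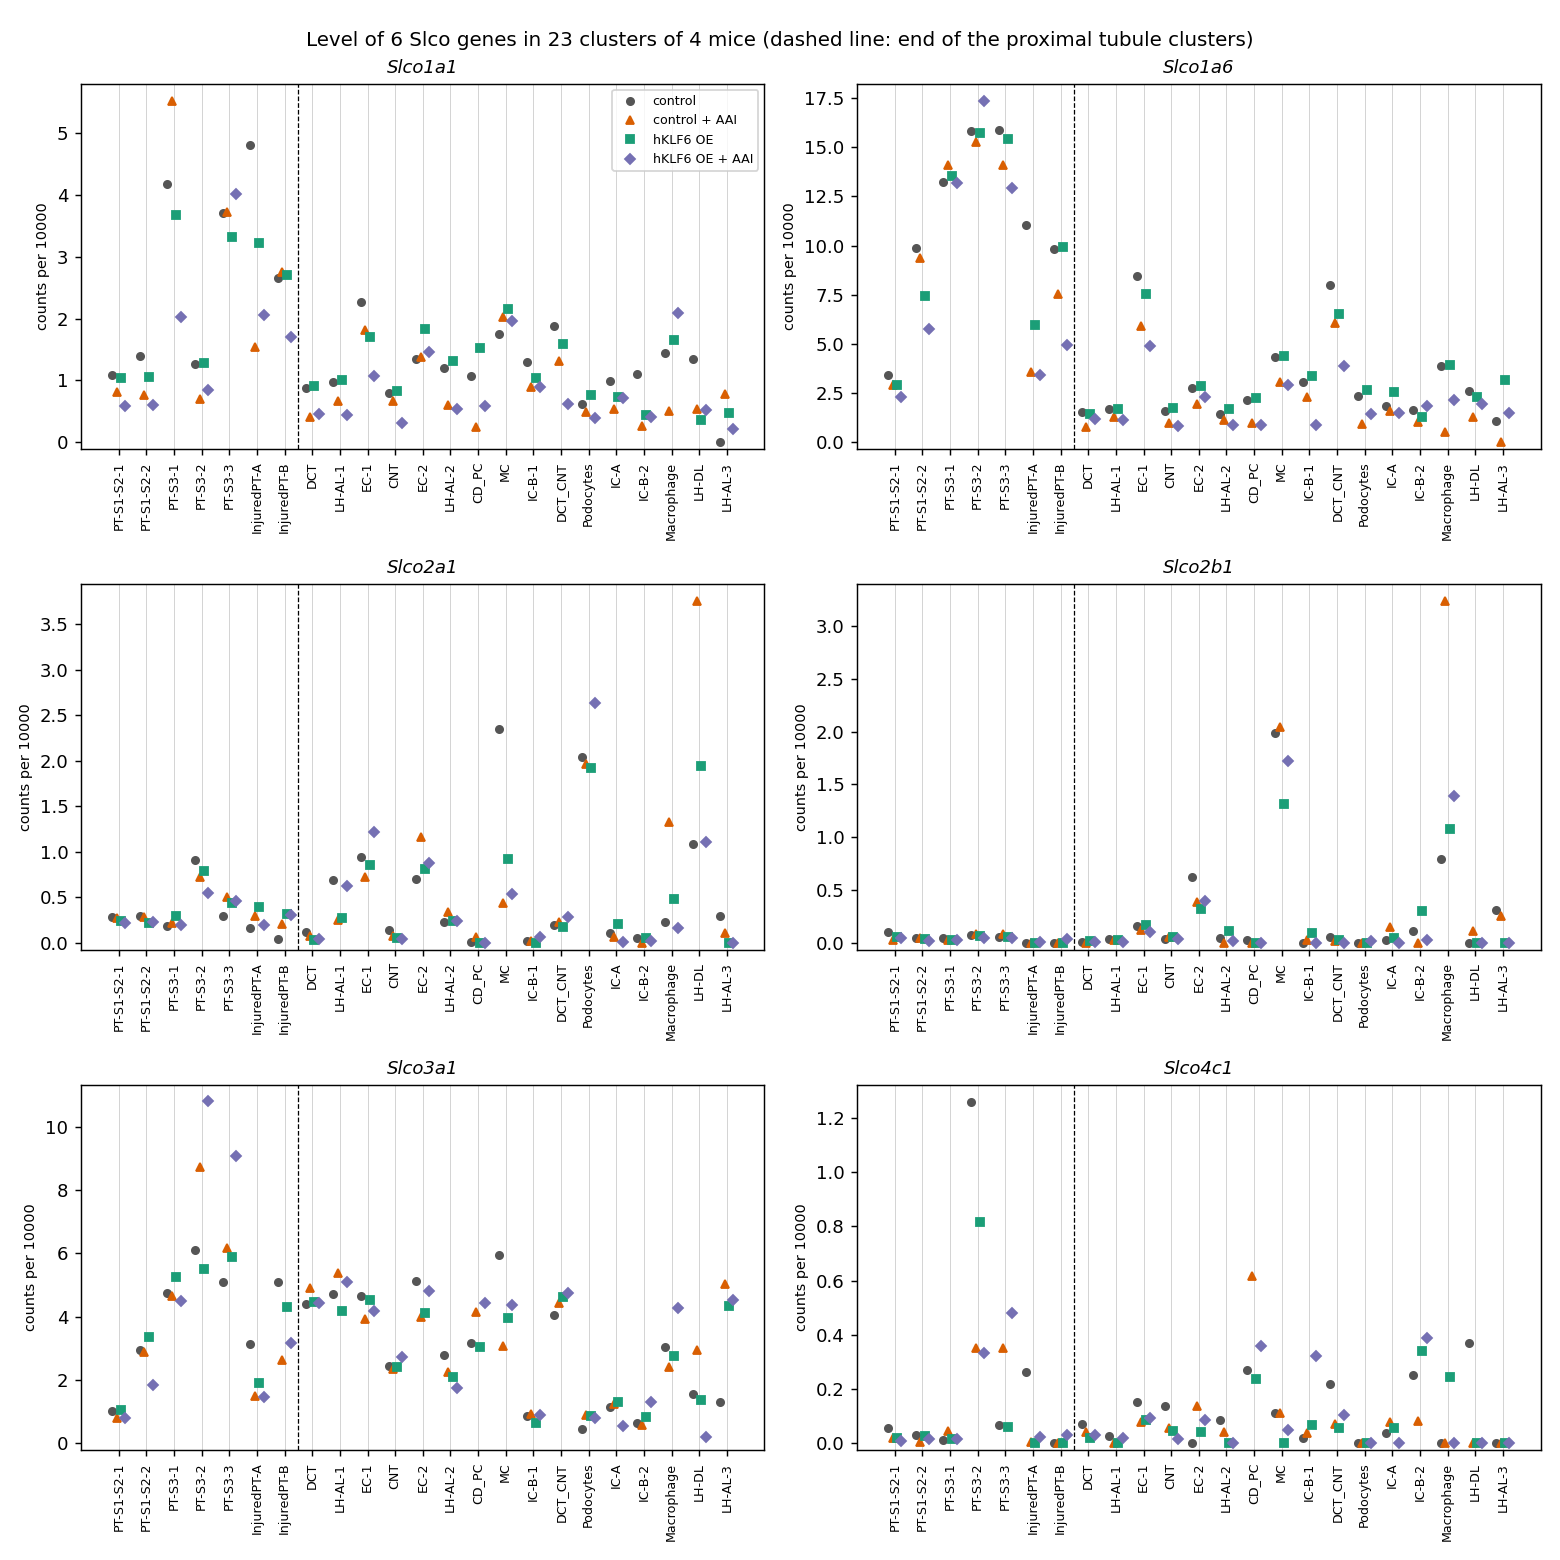
Level of each Slco gene (vertical axis, counts per 10000, linear) in the 23 clusters (horizontal axis), with 1 point for each of the 4 mice and no error bars, since each group is 1 mouse. *Slco1a6* lay between 12.9 and 17.4 in the PT-S3 clusters and *Slco2b1* stood above 0.79 in MC and Macrophage alone.

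*Slco1a6* had the highest level per 100 kb of the 6 and was nearly even between the PT-S3 clusters. In PT-S3-2 it measured 15.8 in control, 15.3 in control with AAI, 15.7 in hKLF6 OE and 17.4 in hKLF6 OE with AAI (mean 16.04, SD 0.916 over 4 mice of different groups). The means in PT-S3-3 and PT-S3-1 were 14.6 and 13.5, and the ranges of these 3 clusters over the mice overlapped, from 12.9 to 17.4 in all. PT-S1-S2-2 followed at 9.88, 9.35, 7.44 and 5.76 in the same order of mice, with no overlap with the PT-S3 clusters. PT-S1-S2-1 had a mean of 2.88.
The genes whose levels ran most like those of *Slco1a6* over the 92 columns, of 11443 compared, were *Acsm1* (Pearson r = 0.930), *Slc1a1* (0.927) and *Acot12* (0.926). *Acsm1* encodes a medium-chain acyl-CoA synthetase, *Slc1a1* a glutamate transporter and *Acot12* an acyl-CoA thioesterase. The 92 columns share mice and cell lineages, so these r values are descriptions.

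*Slco1a1* divided the PT-S3 clusters. In PT-S3-1 it measured 4.18 in control, 5.53 in control with AAI, 3.68 in hKLF6 OE and 2.03 in hKLF6 OE with AAI. In PT-S3-3 it measured 3.71, 3.73, 3.32 and 4.02 in the same order, and in PT-S3-2 1.27, 0.703, 1.28 and 0.850. PT-S3-2 therefore lay below both other PT-S3 clusters in each of the 4 mice, while its *Slco1a6* was the highest mean of the 3. The early clusters PT-S1-S2-1 and PT-S1-S2-2 had means of 0.882 and 0.959. Among the mice without AAI alone, InjuredPT-A had the highest mean, at 4.02, in columns with many genes at 0. The genes most like *Slco1a1* were *Ces1f*, a carboxylesterase (r = 0.775), *Acaa1b*, a peroxisomal thiolase (0.771), and *Ephx2*, the soluble epoxide hydrolase (0.762). *Slco1a6* stood at place 12 with an r of 0.715.

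*Slco4c1* was low everywhere, and its highest mean was in PT-S3-2. In PT-S3-2 it measured 1.26 in control, 0.350 in control with AAI, 0.817 in hKLF6 OE and 0.333 in hKLF6 OE with AAI. In PT-S3-3 it measured 0.0667, 0.353, 0.0594 and 0.479 in the same order, so PT-S3-2 stood above PT-S3-3 only in the mice without AAI. In PT-S3-1 it lay between 0.0121 and 0.0450, below PT-S3-2 in every mouse. The next highest mean was in the principal cells of the collecting duct (CD_PC), at 0.269, 0.618, 0.238 and 0.358, and these values overlapped those of PT-S3-2. It was at 0 in 25 of 92 columns, Podocytes in all 4 mice among them. *Vwa2* (r = 0.806), *Cyp7b1*, the oxysterol hydroxylase that marks PT-S3-2 (0.688), and *Chrdl1* (0.658) ran most like it. Beside *Slco1a6*, an antisense gene, *Gm20400*, has a row of its own, and beside *Slco4c1* the row of *Panct2* had a mean of 0.161 in PT-S3-2. Whether the counting used strand is not given in the sources used here, so reads of overlapping genes may not be fully told apart.

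**Figure D2:**
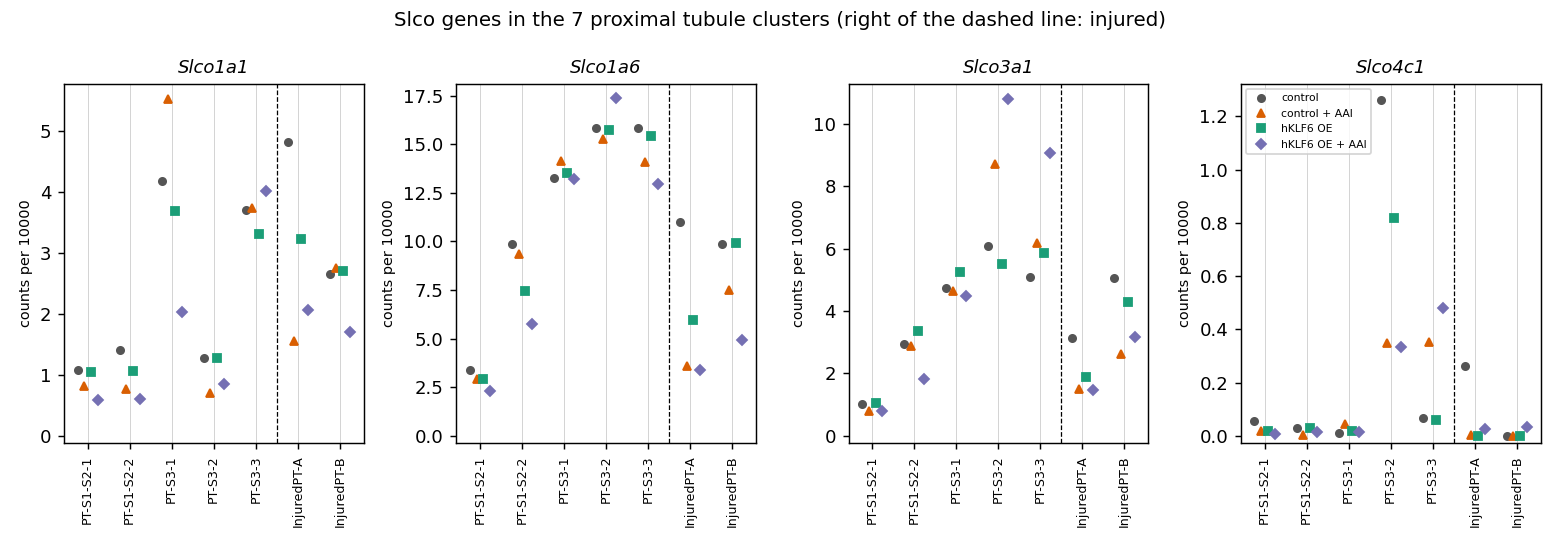
Level (vertical axis, counts per 10000, linear, a separate scale in each panel) of *Slco1a1*, *Slco1a6*, *Slco3a1* and *Slco4c1* in the 7 proximal tubule clusters, 1 point per mouse. PT-S3-2 was low for *Slco1a1* (0.703 to 1.28) and high for *Slco1a6* (15.3 to 17.4), and *Slco4c1* there was 1.26 and 0.817 without AAI and 0.350 and 0.333 with it.

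*Slco3a1* reached 6.09 in control, 8.72 in control with AAI, 5.52 in hKLF6 OE and 10.8 in hKLF6 OE with AAI in PT-S3-2. PT-S3-3 followed at 5.10, 6.18, 5.88 and 9.09. Below these, a run of unlike cell types had nearly the same level: LH-AL-1 had a mean of 4.84, PT-S3-1 of 4.79, DCT (distal convoluted tubule) of 4.55 and EC-2 of 4.51, with overlapping ranges. The lowest mean was 0.746 in Podocytes, and PT-S1-S2-1 stood between 0.796 and 1.06. Its best match by pattern was *Nfib*, a transcription factor, with an r of only 0.679, followed by *Atp11a*, a phospholipid flippase (0.607), and *Slc7a13*, an amino acid carrier of the last proximal segment (0.583).

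*Slco2a1* measured 2.04 in control, 1.96 in control with AAI, 1.92 in hKLF6 OE and 2.63 in hKLF6 OE with AAI in Podocytes. In LH-DL, the descending limb cluster, it measured 1.08, 3.75, 1.95 and 1.11, in columns with 60.7%, 52.5%, 42.5% and 52.6% of genes at 0. Podocyte markers were also present there, with 4 of them summing to 9.82, 11.6, 1.24 and 12.8 in LH-DL against 64.0 to 67.7 in Podocytes, and their part in the *Slco2a1* level of LH-DL was not tested. *Nphs1* in LH-DL was 0.763, 2.67, 0 and 3.00 in the same order of mice. MC held 2.35, 0.438, 0.920 and 0.538, and the endothelial clusters EC-1 and EC-2 had means of 0.934 and 0.886. Podocytes, LH-DL and MC overlapped over the mice, so their order was not fixed. Among proximal tubule clusters only PT-S3-2 passed 0.5 in all 4 mice, from 0.542 to 0.907. *Msrb3* (r = 0.799), *Pde3a*, a phosphodiesterase (0.782), and *C1qtnf7* (0.779) ran most like it.

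*Slco2b1* was nearly confined to MC and Macrophage in these 92 columns. MC held 1.99 in control, 2.04 in control with AAI, 1.31 in hKLF6 OE and 1.72 in hKLF6 OE with AAI, and Macrophage held 0.793, 3.24, 1.08 and 1.39. EC-2 came next with a mean of 0.432, below both in every mouse. In Macrophage the mouse with the highest *Slco2b1*, control with AAI, also had the highest *Itga8*, at 0.622, 2.67, 0.804 and 0.669 in the same order, while *Cd74* was 16.1, 14.6, 18.6 and 13.5. *Pdgfrb* was 0 to 0.275 there. Macrophage also carried endothelial markers, with 6 of them summing to 33.9, 40.9, 26.6 and 22.5 in the same order, against 103 to 108 in EC-2. The 6 macrophage markers summed to 30.5, 28.4, 30.7 and 27.9 in Macrophage. In MC the endothelial sum was 17.5, 25.7, 18.8 and 22.4 in the same order, beside 6.11, 4.71, 4.75 and 4.83 for 4 mesangial markers. Of all genes, 63.4% were at 0 in Macrophage of control with AAI. The part of other cell types in the *Slco2b1* levels of Macrophage and MC was not tested. *Itga8* was also the gene most like *Slco2b1* over all columns (r = 0.929), before *Runx2*, a transcription factor (0.905), and *Col14a1*, a collagen (0.902). In InjuredPT-A *Slco2b1* was at 0 in 3 of 4 mice.

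Of the 7 other Slco rows, only *Slco4a1* reached 0.5, in 10 of 92 columns, with a mean of 0.711 in LH-AL-1. Its highest value was 2.30 in LH-AL-3 of control with AAI, a column with 60.5% of its genes at 0. In LH-AL-3 of control, hKLF6 OE and hKLF6 OE with AAI it was 0.552, 0 and 0.492. *Slco1a4*, which encodes a carrier of the blood-brain barrier, was highest in EC-2 with a maximum of 0.218. *Slco1c1*, *Slco6d1*, *Slco1b2*, *Slco1a5* and *Slco6c1* peaked at 0.422, 0.236, 0.117, 0.0628 and 0.0245. The pair that flanks *Slco1a1* and *Slco1a6* in the genome, *Slco1a4* and *Slco1a5*, was at 0 in 63 and 69 columns.

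Proximal tubule transcripts were found in all clusters, which sets how a low level elsewhere can be read. In the 16 clusters outside the proximal tubule, the 5 proximal tubule markers *Lrp2*, *Slc34a1*, *Slc5a2*, *Slc5a12* and *Slc13a3* had medians from 14.6% to 74.4% of their own mean in the normal proximal tubule. *Slco1a6* lay between 11.22% and 60.8% of its own, above all 5 markers in 0 of 16 clusters and below all 5 in 7. *Slco1a1* lay between 17.6% and 94.8% and was above all 5 markers in 10 of 16. In MC, *Slco1a1* measured 1.75, 2.03, 2.16 and 1.96. *Slco3a1* was above all 5 markers in 11 of 16 clusters. Whether free RNA accounts for part of these levels was not tested.

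**Figure D3:**
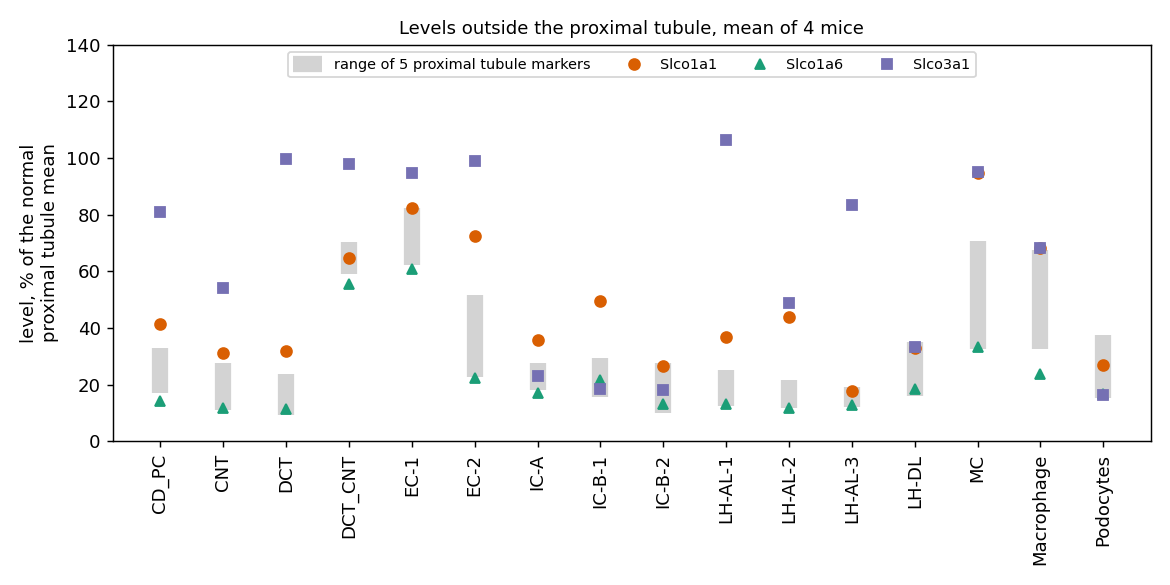
Level outside the proximal tubule as a percent of the gene's own mean over the 5 normal proximal tubule clusters (vertical axis, linear from 0), means of 4 mice, for the 16 other clusters. Grey bars span the lowest to the highest of 5 proximal tubule markers. *Slco1a6* never rose above the bar, and *Slco1a1* and *Slco3a1* did so in 10 and 11 clusters.

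Differences between conditions or cell states are given on the scale of log2(value + 1), which understates the change of low genes. A member counted as higher or lower where the difference was at least 0.2 in size and the larger value at least 0.5, and the same count over all genes is given as the background.

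Along the normal proximal tubule, *Slco1a1*, *Slco1a6* and *Slco3a1* were lower in the early than in the late clusters of every mouse when the clusters of each segment were averaged. Single clusters overlapped for *Slco1a1*: late PT-S3-2 was under early PT-S1-S2-2 in control with AAI (0.703 against 0.770) and in control (1.27 against 1.40). Comparing the mean of the 2 PT-S1-S2 clusters with that of the 3 PT-S3 clusters, 3 of 6 members passed the minimum in control and 3 of these were lower, where 16.1% of 4105 genes were. *Slco1a6* was 6.64 in the early and 14.98 in the late clusters of control, a difference of -1.06, with -1.12, -1.36 and -1.63 in control with AAI, hKLF6 OE and hKLF6 OE with AAI. *Slco3a1* differed by -1.08, -1.40, -1.03 and -1.98, and *Slco1a1* by -0.85, -1.27, -0.87 and -1.05. For *Slco1a6* and *Slco3a1* the difference was widest in hKLF6 OE with AAI. *Slco2a1* passed in hKLF6 OE alone, at -0.30. It did so only through its late level (0.506 against 0.227 in the early clusters), so the minimum fixed its direction. In control with AAI, hKLF6 OE and hKLF6 OE with AAI, 3 of 3, 4 of 4 (*Slco2a1* among them) and 3 of 3 members were lower, where 19.4%, 14.1% and 19.7% of all genes were. The clusters were named from expression in these same nuclei, so the direction is a description.

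In the injured clusters of the AAI-treated mice, *Slco1a6* and *Slco3a1* were lower than in the mean of all normal clusters, and *Slco1a1* was not uniformly so. Without AAI, in columns with many genes at 0, *Slco3a1* in InjuredPT-B was 5.08 against 3.98 in control and lay slightly above the normal mean of 4.21 in hKLF6 OE, and *Slco1a6* in InjuredPT-A was 11.02 against 11.64 in control and 5.98 against 11.01 in hKLF6 OE. In InjuredPT-A of control with AAI, *Slco1a6* was 3.57 against 11.15 and *Slco3a1* was 1.495 against 4.65, differences of -1.41 and -1.18. In hKLF6 OE with AAI the values were 3.40 against 10.3 and 1.47 against 5.40, differences of -1.36 and -1.37. The InjuredPT-A levels of both genes thus nearly coincided in the 2 AAI-treated mice. The PT-S1-S2 clusters alone had means of 6.14 and 4.02 for *Slco1a6* and 1.84 and 1.31 for *Slco3a1* in these mice. Against those, only *Slco1a6* in control with AAI was lower by at least the threshold. *Slco1a6* in hKLF6 OE with AAI and *Slco3a1* in control with AAI were below them, but within the threshold. *Slco3a1* in hKLF6 OE with AAI was slightly above. The size of these differences thus rests in part on the late clusters in the reference. *Slco1a1* was above its PT-S1-S2 mean in both mice (0.790 and 0.595). Against all normal clusters it was 1.55 against 2.31 in control with AAI (-0.38) and 2.07 against 1.62 in hKLF6 OE with AAI (0.23).
That higher value rests on the reference. Against the 3 PT-S3 clusters alone it was -0.11 (*Slco1a1* under its PT-S3 level), and relative to the median of all genes, which itself was higher by 0.22 and 0.16 in InjuredPT-A of the 2 mice, it was 0.06. In control with AAI, 3 of the 6 members passed the minimum and 3 were lower, where 27.8% of 5479 genes were lower and 79.2% differed in either direction. In hKLF6 OE with AAI, 2 were lower and 1 higher of 3, where 30.6% of 5337 genes were lower and 78% differed in either direction. *Slco2a1*, *Slco2b1* and *Slco4c1* stayed under the minimum in both, with *Slco4c1* at 0.00420 and 0.0239 in InjuredPT-A.

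In InjuredPT-B of the AAI-treated mice the same genes were lower than the mean of all normal clusters by less. *Slco1a6* was 7.53 against 11.15 in control with AAI (-0.51) and 4.92 against 10.3 in hKLF6 OE with AAI (-0.93). *Slco3a1* was 2.63 against 4.65 (-0.64) and 3.16 against 5.40 (-0.62). Both genes were nevertheless above the mean of the PT-S1-S2 clusters alone, with *Slco1a6* at 6.14 and 4.02 and *Slco3a1* at 1.84 and 1.31 in those, so their direction in InjuredPT-B rests on the late clusters in the reference. *Slco1a1* differed by 0.18 and 0.05, within the threshold, and by -0.20 and -0.29 when PT-S3 alone was the reference. Of all genes, 49.7% and 53.2% differed in either direction, 15.4% and 17.3% were lower, and the median of all genes was higher by 0.12 in both mice.
*Gm20400*, the antisense gene within *Slco1a6*, went the other way and was looked at after its values were seen. In InjuredPT-A it measured 5.70 in control with AAI and 3.19 in hKLF6 OE with AAI, against 3.58 and 2.05 in the normal clusters of these mice, differences of 0.55 and 0.46. In InjuredPT-B the differences were 0.38 and 0.65. In the normal clusters it was 2.02 in control and 1.99 in hKLF6 OE, so that AAI went with a difference of 0.60 in the control genotype and 0.03 in hKLF6 OE, while *Slco1a6* differed by -0.06 and -0.09.

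**Figure D4:**
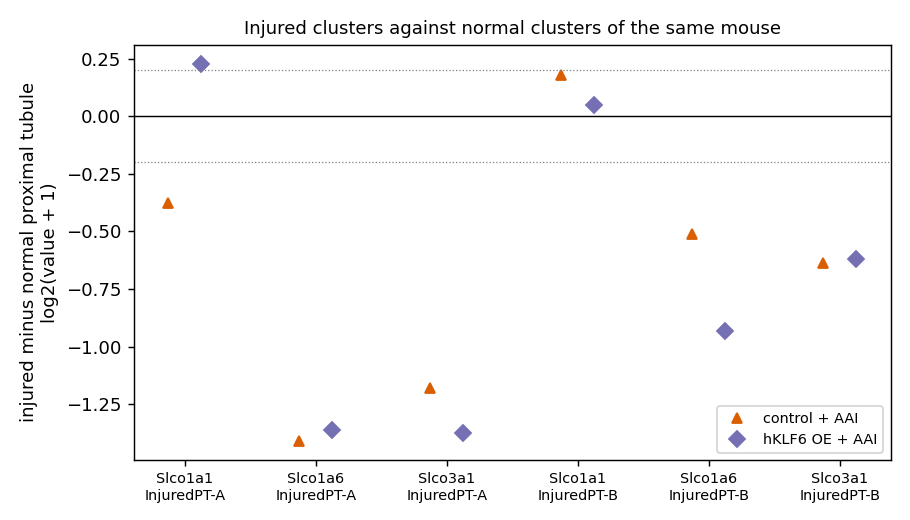
Each injured cluster minus the 5 normal clusters, averaged, within 1 AAI-treated mouse (vertical axis, log2(value + 1)) for 3 carriers, 1 point per mouse. Dotted lines mark 0.2 and -0.2. *Slco1a6* lay at -1.41 and -1.36 in InjuredPT-A and at -0.51 and -0.93 in InjuredPT-B, and *Slco1a1* lay on both sides of 0.

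Other genes of the same pathways were read from lists chosen with earlier results of these data known. Of all genes in InjuredPT-A, 27.8% were lower and 79.2% differed in control with AAI, and 30.6% and 78% in hKLF6 OE with AAI, and the list counts are to be read beside these shares. Among genes that handle thyroid hormone, 7 of the 7 that passed the minimum were lower in InjuredPT-A in both AAI-treated mice. They included *Thrb*, the thyroid hormone receptor beta (1.49 against 10.9 and 2.04 against 11.25), *Lrp2*, the endocytic receptor megalin, and *Slc7a8*, an amino acid carrier that also takes thyroid hormone. The list's median difference was -0.79 in control with AAI and -0.85 in hKLF6 OE with AAI, beside medians of 0.22 and 0.16 over all genes.
Among organic anion, bile salt and steroid transporters of other families, 4 were higher and 11 lower of 15 in control with AAI, and 2 higher and 10 lower of 14 in hKLF6 OE with AAI. *Slc16a9*, a carnitine efflux carrier, was 1.14 against 7.28 and 1.36 against 7.31, and *Slc17a3*, an organic anion carrier of the luminal side, was 3.34 against 13.3 and 2.14 against 8.36. *Slc22a6*, which encodes the organic anion transporter OAT1, was higher in InjuredPT-A of hKLF6 OE with AAI, at 6.09 against 1.35.
Of transcription factors that act on such transporter genes, 1 was higher and 6 were lower of 8 in both mice. *Ppara*, a nuclear receptor for fatty acids, was 1.43 against 10.7 and 1.30 against 8.02, and *Nr1h4*, the bile acid receptor FXR, was 2.93 against 13.3 and 2.85 against 10.8. Prostaglandin genes were mostly too low: 4 of 20 passed in control with AAI, with *Ptges3*, a prostaglandin E synthase and Hsp90 cochaperone, higher at 2.93 against 0.684 and *Abcc4*, an efflux pump for prostaglandins, lower at 0.254 against 1.14.
In InjuredPT-B, thyroid hormone genes had 1 higher and 4 lower of 7 in control with AAI and 1 higher and 5 lower of 7 in hKLF6 OE with AAI, where 15.4% and 17.3% of all genes were lower. *Abcb1b*, the drug efflux pump, was higher there in control with AAI, at 3.87 against 0.846.

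With AAI against no treatment, *Slco3a1* and *Slco1a1* differed in opposite directions in different normal clusters, so the mean of the 5 holds differences of both signs. In the mean, 0 of the 3 members above the minimum passed in the control genotype, where 23% of all genes did, and 2 of 3 passed in hKLF6 OE, where 34.9% did. In hKLF6 OE, *Slco3a1* went from 4.21 to 5.40 (0.30) and *Slco1a1* from 2.08 to 1.62 (-0.23). Over the PT-S3 clusters alone, this *Slco1a1* difference was -0.19, inside the threshold. In the control genotype, *Slco3a1* differed by 0.18, *Slco1a1* by -0.01 and *Slco1a6* by -0.06.

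*Slco3a1* was higher with AAI in PT-S3-2 in both genotypes, at 8.72 against 6.09 (0.45) in control and 10.8 against 5.52 (0.86) in hKLF6 OE. It was also higher in PT-S3-3, by 0.24 and 0.55. In PT-S1-S2-2 it was 2.88 against 2.94 in control (-0.02) and 1.83 against 3.35 in hKLF6 OE (-0.62). The higher values thus lay in PT-S3-2 and PT-S3-3, with no such call in the other 3 normal clusters.
In PT-S3-2, *Slco4c1* differed the other way, by -0.74 in control and -0.45 in hKLF6 OE. It passed the minimum only through its levels without AAI (1.26 and 0.817, against 0.350 and 0.333 with AAI), so the minimum fixed its direction. Of the 5 members above the minimum in PT-S3-2, *Slco4c1* included, 1 was higher and 2 were lower in control, where 26.3% of all genes differed. In hKLF6 OE, 1 was higher and 3 were lower, where 37.7% of all genes differed. *Slco1a1* was lower in both genotypes (-0.42 and -0.30), and *Slco2a1* in hKLF6 OE alone, at 0.542 against 0.786 (-0.21), while *Slco1a6* differed by -0.05 and 0.14.

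In PT-S3-3, *Slco4c1* was 0.0667 in control and 0.353 with AAI, and 0.0594 in hKLF6 OE and 0.479 with AAI, all under the minimum. *Cyp7b1*, the marker of PT-S3-2, moved with it in that cluster, from 0.746 to 11.5 and from 1.22 to 20.1. *Cntnap5a*, a marker highest in PT-S3-1, went from 3.48 to 0.216 and from 2.29 to 0.352 there. Its fall was not particular to PT-S3-3. In PT-S3-1 it went from 5.86 to 0.689 in control and from 4.31 to 0.0675 in hKLF6 OE. In PT-S3-2 it went from 1.12 to 0.459 and from 1.03 to 0.427. A change within PT-S3-3 nuclei and a different set of nuclei assigned to PT-S3-3 cannot be told apart here. In PT-S3-3, 41.5% and 50.1% of all genes differed.
*Slco1a1* was lower with AAI in the early clusters of both genotypes, by -0.20 and -0.37 in PT-S1-S2-1 and by -0.44 and -0.36 in PT-S1-S2-2, where 26.2%, 34.4%, 28% and 37.2% of all genes differed. This was not particular to the early clusters. In DCT *Slco1a1* went from 0.875 to 0.416 in control and from 0.908 to 0.460 in hKLF6 OE. In LH-AL-2, also of the ascending limb, it went from 1.20 to 0.609 and from 1.32 to 0.532. Not all clusters fell: MC rose in control (1.75 to 2.03) and Macrophage in hKLF6 OE (1.66 to 2.10). In PT-S3-1 the *Slco1a1* values of the genotypes diverged, with 5.53 against 4.18 in control (0.33) and 2.03 against 3.68 in hKLF6 OE (-0.63). There 31.6% and 44.4% of all genes differed. The sum of 4 PT-S3 markers in PT-S3-1 was 30.7 in control, 20.8 in control with AAI, 22.6 in hKLF6 OE and 9.31 in hKLF6 OE with AAI, and its part in the *Slco1a1* value was not tested. In hKLF6 OE alone, *Slco1a6* was lower in the early clusters, by -0.26 and -0.32, and in PT-S3-3 (-0.23), *Slco3a1* was lower in PT-S1-S2-1 (-0.20), and *Slco1a1* was higher in PT-S3-3 (0.22).

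**Figure D5:**
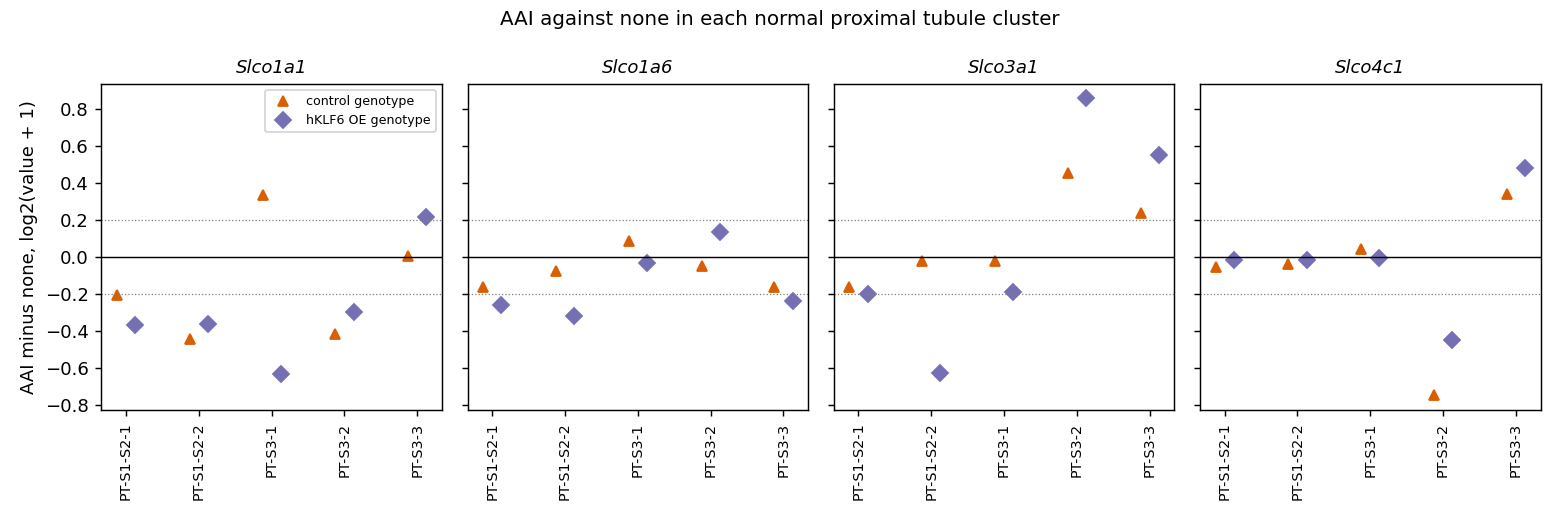
AAI minus none in each normal proximal tubule cluster (vertical axis, log2(value + 1)) for 4 carriers, 1 point per genotype, each from 1 mouse against 1 mouse. Dotted lines mark 0.2 and -0.2. *Slco3a1* was above 0.2 in PT-S3-2 and PT-S3-3 of both genotypes, and *Slco4c1* below -0.2 in PT-S3-2. There *Slco4c1* passed the minimum level only without AAI, which fixed its direction, and its PT-S3-3 values stayed under the minimum.

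Of the listed regulators in the mean of the 5 normal clusters, *Ppara* was higher with AAI in both genotypes (10.7 against 5.10 and 8.02 against 4.92), as was *Nfe2l2*, the oxidative stress factor NRF2 (1.99 against 1.21 and 1.83 against 1.07). In all, 4 factors were higher and 2 lower of 9 in control, and 4 higher and 1 lower of 8 in hKLF6 OE, where 23% and 34.9% of all genes differed in either direction. Of the other anion transporters, 5 were higher and 5 lower of 15 in control, and 6 higher and 6 lower of 15 in hKLF6 OE. *Slc22a12*, the urate transporter, was lower in both genotypes (0.553 against 1.72 and 0.452 against 2.19), and *Abcc2*, an efflux pump for conjugates, was higher in hKLF6 OE (16.5 against 7.67). Of 7 thyroid hormone genes, 1 was higher and 1 lower in control, and 4 were higher and 1 lower in hKLF6 OE, where *Slc16a10*, a thyroid hormone and aromatic amino acid carrier, was 3.09 against 1.69.

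Overexpression of hKLF6 without AAI left the carriers within the threshold in the mean of the normal clusters: 0 of 3 members above the minimum differed, where 17.2% of 4041 genes did. The values were 2.08 in hKLF6 OE against 2.33 in control for *Slco1a1*, 11.01 against 11.6 for *Slco1a6* and 4.21 against 3.98 for *Slco3a1*. In single clusters, *Slco1a6* was 7.44 against 9.88 in PT-S1-S2-2 (-0.37), *Slco1a1* was 1.06 against 1.40 in the same cluster (-0.22) and *Slco4c1* was 0.817 against 1.26 in PT-S3-2 (-0.32). In these clusters 22.2% and 21.9% of all genes differed.
Between the AAI-treated mice, *Slco1a1* was lower in hKLF6 OE, at 1.62 against 2.31 (-0.34), as 1 of 3 members, where 14.1% of genes differed. Most of this difference lay in PT-S3-1, at 2.03 against 5.53 (-1.11), where 26% of genes differed. *Slco1a6* was 5.76 against 9.35 in PT-S1-S2-2 (-0.61) and 2.29 against 2.93 in PT-S1-S2-1 (-0.26), where 24.6% and 21.5% of genes differed. *Slco3a1* was higher in PT-S3-2 (0.28) and PT-S3-3 (0.49), where 16.4% and 28.8% did, and lower in PT-S1-S2-2 (-0.46). The AAI-treated mice serve in this comparison and in those above, so these values share mice.
Among the other anion transporters, 2 were higher and 6 lower of 14 without AAI, with *Abcc4* at 1.08 against 2.01, and 0 were higher and 7 lower of 14 with AAI, with *Slc17a3* at 8.36 against 13.3. The list medians were -0.16 and -0.21, beside -0.03 and 0.01 over all genes. Of the transcription factors, 1 was higher and 3 lower of 9 without AAI and 0 were higher and 5 lower of 8 with AAI, *Ppara* among the latter (8.02 against 10.7).

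Outside the proximal tubule, each member was followed in the cluster of its highest mean there. In EC-1, which also held proximal tubule transcripts, *Slco1a6* was lower with AAI in both genotypes, at 5.90 against 8.44 (-0.45) and 4.91 against 7.56 (-0.53), where 30% and 37.2% of genes differed. The sum of 5 proximal tubule markers in EC-1 was 80.6 in control, 64.1 in control with AAI, 63.2 in hKLF6 OE and 58.2 in hKLF6 OE with AAI, and its part in the *Slco1a6* value was not tested. *Slco2a1* in Podocytes differed by -0.04 in control and 0.32 in hKLF6 OE, where 53.9% and 62.2% of genes differed. *Slco2b1* in MC differed with AAI by 0.02 and 0.24 (0.17 for the latter relative to the median of all genes), and was lower in hKLF6 OE than in control without AAI (-0.37), where 62.8%, 66.3% and 66.4% of genes differed.
*Slco1a1* in MC differed with AAI by 0.14 and -0.10, and was higher in hKLF6 OE than in control without AAI, at 2.16 against 1.75 (0.20). *Slco3a1* in LH-AL-1 was 5.38 against 4.71 in control (0.16) and 5.09 against 4.19 in hKLF6 OE (0.23, and 0.19 relative to the median of all genes), where 35% and 42.9% of genes differed. *Slco4c1* in CD_PC was 0.618 against 0.269 in control (0.35), where 49.3% of genes differed, and stayed under the minimum in hKLF6 OE. Between the AAI-treated mice, hKLF6 OE differed from control by -0.22 for *Slco1a6* in EC-1, 0.30 for *Slco2a1* in Podocytes and -0.25 for *Slco4c1* in CD_PC, where 25.6%, 48.2% and 49.5% of genes differed. *Slco4c1* in CD_PC passed the minimum only through control with AAI (0.618), so the minimum fixed the direction of both its differences.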

How the data were processed

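Single-nucleus RNA sequencing of 4 mice was used, 1 per group. Per the study's methods, the authors ran Cell Ranger against pre-mRNA models (mm10 per the labels), filtered nuclei by detected genes and mitochondrial share, and clustered them with Seurat, in 1 technical batch. No step against doublets is given. The authors' deposited signal was read as mean normalized counts per 10000 of a nucleus, since each of 92 columns sums to 10000. The function that made them was not given in the sources used here. Rows with date-like names (23) were left out, leaving 19609. Cluster names followed the order of the study's marker sheets.

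The members and lists were chosen with earlier results of these data known. Differences of log2(value + 1), with a minimum of 0.5 on the larger side and a threshold of 0.2, were computed over all genes. No test was made. Named genes were the members, the other Slco rows, the 3 genes of highest Pearson's r for each member, and up to 3 of largest difference per list and comparison; *Gm20400*, *Panct2* and marker genes were added beside results. Some listed genes are counted and not reported by name here. The rule was also run on simulated data without noise, with shifts above the threshold. That outcome was fixed in advance and gives no error rate. Alternatives were a pseudocount of 0.1, no minimum or one of 2, a threshold of 0.5 and centring on the median. PT-S3 or PT-S1-S2 clusters alone were also used, but only PT-S3 as the reference for the injured clusters. Other ways to rank clusters and alike genes were tried too. Positions and sequences came from GENCODE and RefSeq. Python 3.11.15, numpy 2.4.6, pandas 2.3.3 and matplotlib 3.10.9 were used.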

Additional observations from a re-analysis of the deposited data

Results flagged for a closer look

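*Slco1a1* in PT-S3-1 moved in opposite directions with AAI in the 2 genotypes, which drew attention to it. The difference was 0.33 on the log2(value + 1) scale in the control genotype (4.18 without AAI and 5.53 with it) and -0.63 in hKLF6 OE (3.68 and 2.03). Each side is 1 mouse against 1 mouse, and the difference between the genotypes was not tested. *Slc7a13*, a marker of the last proximal segment, was 13.5 in control, 9.92 in control with AAI, 9.09 in hKLF6 OE and 2.38 in hKLF6 OE with AAI in the same cluster.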

How the results depend on the processing

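No paired analysis was possible because each group is 1 mouse, and leaving out a mouse leaves no comparison. Of 552 values of single members under an alternative, 502 kept their direction and their side of the threshold, 26 lost and 19 gained a call, and 5 turned. With PT-S3 clusters as the reference, *Slco1a1* turned to -0.20 (control with AAI) and -0.29 (hKLF6 OE with AAI) in InjuredPT-B and to -0.11 in InjuredPT-A of hKLF6 OE with AAI. With PT-S1-S2 clusters alone, *Slco3a1* turned to -0.47 (AAI minus none in hKLF6 OE) and -0.30 (hKLF6 OE minus control, both with AAI). Calls for AAI in normal proximal tubule, 2 over both genotypes, became 0 at a threshold of 0.5 and 4 in PT-S1-S2 alone. For hKLF6, 1 call became 2 with a pseudocount of 0.1, 0 at a threshold of 0.5, 2 in PT-S3 alone and 3 in PT-S1-S2 alone. Outside the proximal tubule, 11 calls became 7 with a minimum of 2 and 1 at a threshold of 0.5. Of the 18 alike genes, 9 stayed with a pseudocount of 0.1 and 8 over the 23 cluster means. Counts for injured clusters (10) and for early against late clusters (13) stayed within 1.5 times under every alternative run for them. For the injured clusters the only other reference run was PT-S3, where *Slco1a1*, *Slco1a6* and *Slco3a1* were higher than in PT-S1-S2. PT-S1-S2 alone was not run as that reference. *Slco1a6* and *Slco3a1* in InjuredPT-B lay above its means, as given above, so this count does not show that their direction is stable. The causes of these changes were not tested. Depth per column is unknown.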
